A study of Rattus norvegicus with 10 samples.

Results

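The nuclear-encoded genes for respiratory complexes II to V were examined in the hippocampus of female TgF344-AD rats fed the histone deacetylase inhibitor RG2833. Members were all symbols of the count table for succinate dehydrogenase subunits (Sdha to Sdhd), complex III subunits (Uqcr genes and Cyc1), cytochrome c oxidase subunits (Cox4 to Cox8 genes) and ATP synthase subunits (Atp5 genes). Of 17168 symbols, 46 matched and 1 pseudogene, Cox6c-ps1, was dropped, which left 45 genes. Of these, 42 passed the filter on low counts and were tested, and Cox6a2, Cox8b and Cox8c did not pass it. Cox6b1, Cox7a1, Cox7b2 and the subunits encoded by mitochondrial DNA are not analysed here.

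Respiratory complexes sit in the inner mitochondrial membrane. Complex II passes electrons from succinate to ubiquinone, complex III passes them on to cytochrome c, and complex IV, cytochrome c oxidase, transfers them to oxygen. Complexes III and IV pump protons out of the matrix, and ATP synthase, also called complex V, makes ATP as the protons flow back through its membrane ring. Hippocampal neurons draw most of their ATP from this chain, and all of its complexes except complex II also contain subunits encoded by mitochondrial DNA.

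TgF344-AD rats carry mutant human amyloid precursor protein and presenilin 1 transgenes driven by the mouse prion promoter. All 10 animals here were transgenic females, so the RG2833 group is compared with untreated transgenic animals and with no wild type. The 5 untreated rats ate rodent chow, and the other 5 were given RG2833 in the chow (750 mg per kg) from the age of 5 months, over 6 months. All were killed at 11 months, and mRNA of the left hippocampus was sequenced, 1 library per animal. RG2833 inhibits the class I enzymes HDAC1 and HDAC3.

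Levels are CPM, read counts relative to library size, with TMM factors that bring libraries to a common scale by a trimmed mean of gene ratios. They are not divided by gene length, so they compare animals within a gene and not genes with each other. A gene was called when its adjusted p-value in edgeR's quasi-likelihood test was under 0.05, with Benjamini-Hochberg adjustment over 11791 tested genes. Errors beside means are SD over 5 animals, errors beside log2 fold changes are SE, and fold changes are RG2833 minus untreated. Whole hippocampus was sequenced, so fewer cells of a type and less RNA per cell cannot be told apart.

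Several libraries stood apart in ways that touch the results. Total counts ranged from 8764266 to 11131412 in untreated and from 9535071 to 11311673 in RG2833 animals. Ribosomal RNA loci took 2.91, 5.36, 5.08, 2.70 and 3.08% of counts in untreated animals 1 to 5 and 1.94, 1.96, 1.13, 1.43 and 1.36% in RG2833 animals, without overlap. The summed level of 7 excitatory neuron markers was 1624 to 3057 CPM in untreated and 2963 to 3322 CPM in RG2833 animals. Of these 7 markers edgeR called none and DESeq2's Wald test called 2 higher, beside 618 of all 11791 genes tested in edgeR. The vesicular glutamate transporter Slc17a7 was at 1266 to 1801 CPM in untreated and 1906 to 2344 CPM in RG2833 animals, without overlap, with a log2 fold change of 0.36 ± 0.11 (edgeR adjusted p = 0.0689). Summed marker levels overlapped between untreated and RG2833 animals for inhibitory neurons (411 to 766 against 428 to 581 CPM), astrocytes (3232 to 5046 against 3579 to 4875 CPM), oligodendrocytes (5563 to 17589 against 8886 to 12030 CPM), microglia (245 to 356 against 224 to 294 CPM) and endothelial cells (207 to 297 against 191 to 213 CPM). Of 6 microglia markers edgeR called 1 lower, Aif1, with a log2 fold change of -0.74 ± 0.20 (edgeR adjusted p = 0.0496). Its groups overlapped, at 21.5 to 49.1 CPM in untreated and 20.2 to 23.0 CPM in RG2833 animals. Of the 6, 5 had a log2 fold change below 0 and 1, Cx3cr1, above 0 (0.20). Choroid plexus markers summed to 59.8 to 2835 CPM in untreated and 77.6 to 159 CPM in RG2833 animals, and untreated animal 1 alone held 2381 CPM of transthyretin (Ttr). None of the listed markers in the table was at 0 in all animals. The part of these markers and of the ribosomal RNA share in the results was not tested beyond the fits with covariates given below.

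As a group the respiratory subunit genes were lower in the RG2833 animals. Of 42 tested members, 15 were called lower and none higher. However, none of the 15 calls remained when the model held a term for ribosomal RNA share or for excitatory neuron markers. Over all tested genes, 2.67% were called lower and 2.41% were called higher. All 42 members had a log2 fold change below 0, which held for 50.6% of all tested genes, and the median was -0.25 with a range from -0.78 to -0.028. The median over all tested genes was -0.0035. For 15 of the 42 tested members every RG2833 animal was below every untreated animal, against 3.47% of all tested genes with that order and 3.8% with the opposite order. DESeq2's Wald test called 21 members lower and none higher, including the same 15 genes, where it called 4.48% of its genes lower. The 6 genes that DESeq2 added were Cox6c, Uqcrb, Cox4i1, Uqcrc2, Uqcr11 and Atp5c1, and below, called without a tool's name means called by edgeR.

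**Figure D1:**
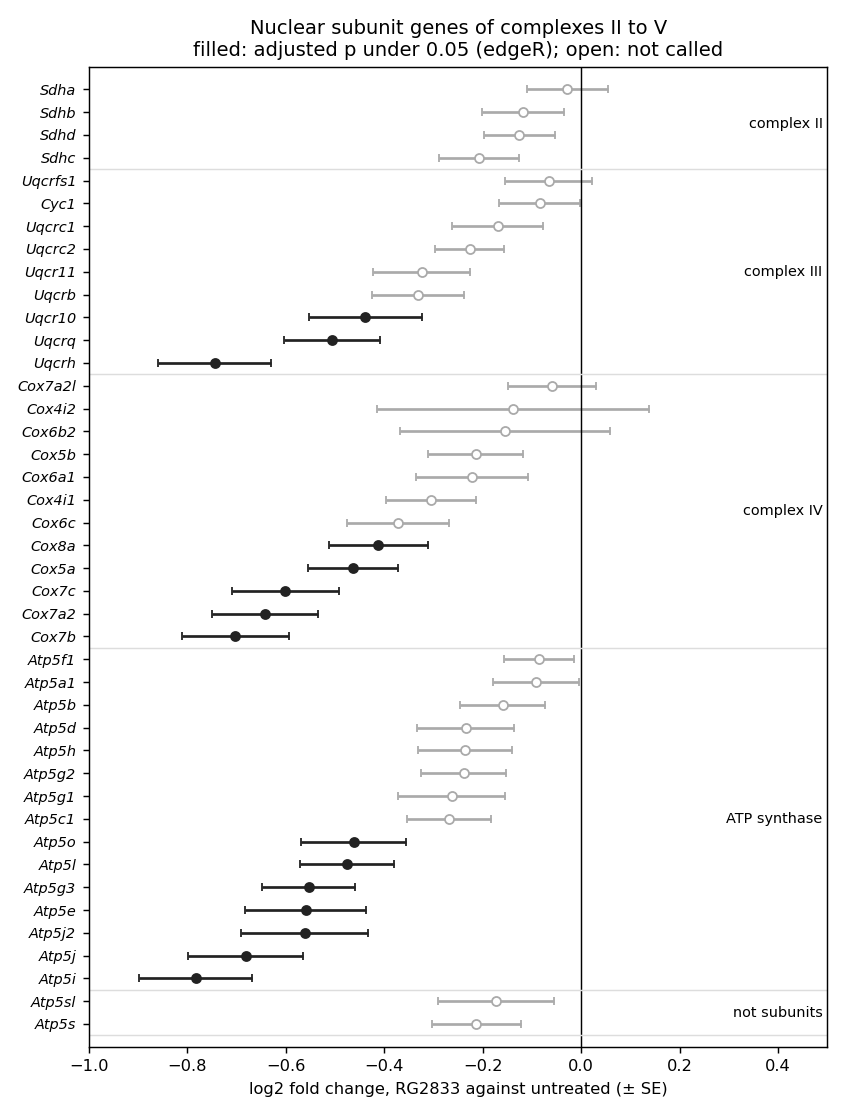
Log2 fold change (RG2833 minus untreated) of the 42 tested respiratory subunit genes, ordered within complex II, complex III, complex IV, ATP synthase and the matched genes that are no subunits; points are estimates, bars are SE and filled points are edgeR calls. All 42 points lie below 0, and the 15 called genes, from -0.78 to -0.41, are spread over complexes III, IV and ATP synthase.

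The 3 promoters printed here are those of the called genes with the lowest p-values in ATP synthase and complex III (Atp5i and Uqcrh) and of Sdha, the member with the smallest change. Each is the 250 bases before the RefSeq start (build GRCr8), written 5′ to 3′ on the gene's strand, with matches to 3 short motifs of nuclear respiratory gene regulators in capitals. The motifs were GCGCANGCG (NRF1 core), CCGGAAG (ETS core, as bound by GABPA) and AAGATGG (YY1 core), each searched on both strands. The Atp5i promoter (listed as Atp5me, chr14:1464610-1464859, plus strand) held 1 YY1 match (CCATCTT), 1 ETS match (CTTCCGG) and 2 overlapping NRF1 matches on opposite strands (GCGCATGCGC). The Uqcrh promoter (chr5:134790883-134791132, minus strand) held 1 ETS match, and that of Sdha (chr1:30764303-30764552, plus strand) held 2 NRF1 matches.
Atp5i: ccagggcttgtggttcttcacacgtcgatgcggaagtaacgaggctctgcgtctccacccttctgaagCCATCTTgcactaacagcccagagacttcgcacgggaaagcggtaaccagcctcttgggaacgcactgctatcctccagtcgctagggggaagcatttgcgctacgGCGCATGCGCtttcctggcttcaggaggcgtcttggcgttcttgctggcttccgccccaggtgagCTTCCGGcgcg
Uqcrh: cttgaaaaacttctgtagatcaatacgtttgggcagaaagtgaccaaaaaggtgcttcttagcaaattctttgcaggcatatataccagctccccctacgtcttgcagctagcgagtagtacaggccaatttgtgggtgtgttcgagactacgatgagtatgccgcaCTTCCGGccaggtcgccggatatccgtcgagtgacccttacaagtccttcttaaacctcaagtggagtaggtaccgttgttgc
Sdha: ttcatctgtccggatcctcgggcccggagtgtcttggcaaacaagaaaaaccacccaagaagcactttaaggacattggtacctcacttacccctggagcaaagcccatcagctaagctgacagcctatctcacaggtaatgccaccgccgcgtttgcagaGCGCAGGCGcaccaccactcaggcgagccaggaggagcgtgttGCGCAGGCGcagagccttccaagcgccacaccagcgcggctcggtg

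Promoters were listed for 37 of the 45 members, including all 15 called genes and 19 tested genes that were not called. The NRF1 core occurred in 3 of the 15 called and 4 of the 19 other genes, and in 5.47% of 27457 rat promoters of the same length. The ETS core occurred in 7 of 15 called genes (Atp5i, Atp5j, Atp5l, Cox7a2, Cox8a, Uqcrh and Uqcrq), in 5 of 19 others and in 7.71% of all promoters. The YY1 core occurred in 2 of 15, 1 of 19 and 4.58%. A match describes letters in this window and is no evidence of binding.

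No complex II gene was called. Its 4 genes are all encoded in the nucleus, and their median log2 fold change was -0.12 with edgeR's smallest adjusted p at 0.139. Sdha, the flavoprotein that oxidises succinate, measured 296, 269.6, 340.2, 263 and 333 CPM in the 5 untreated animals and 296, 288, 295, 306 and 288 CPM in the 5 RG2833 animals. The highest and the lowest of its 10 values were both from untreated animals, and its log2 fold change was -0.028 ± 0.083, with a 95% interval of -0.21 to 0.15 (edgeR adjusted p = 0.864). Sdhb, the iron-sulfur subunit, had 146 ± 17.2 CPM without and 135 ± 5.85 CPM with RG2833, with a log2 fold change of -0.12 ± 0.083. The membrane anchor Sdhc had 148 ± 14.6 CPM without and 128 ± 9.22 CPM with RG2833 and a log2 fold change of -0.21 ± 0.081. It was the one complex II gene with an unadjusted p under 0.05, a threshold at which 12.7% of all tested genes were lower and 11.8% higher. DESeq2 called none. For Sdhd, the other anchor, the means were 129.5 ± 10.2 CPM without and 119 ± 7.25 CPM with RG2833 (log2 fold change -0.13 ± 0.072). A p above the threshold does not show that these genes kept their level: the interval for Sdhc reached from -0.38 to -0.032.

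In complex III, 3 of 9 tested genes were called lower, beside 2.67% of all tested genes. These were Uqcrh, Uqcrq and Uqcr10, all of them small accessory subunits. The median log2 fold change of the complex was -0.32. Uqcrh, the acidic hinge protein that helps cytochrome c bind, measured 116, 112, 122, 87.6 and 78.9 CPM in the 5 untreated animals and 65.9, 63.1, 57.6, 62.0 and 59.9 CPM in the 5 RG2833 animals. Every RG2833 value was below every untreated value, and the 2 lowest untreated values came from animals 4 and 5. Its fitted level fell by 40.3%, a log2 fold change of -0.74 ± 0.11 (edgeR adjusted p = 0.00742).

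Uqcrq, the ubiquinone-binding small subunit, measured 134, 129, 128, 110.5 and 91.9 CPM in the 5 untreated animals and 89.1, 82.0, 80.4, 86.7 and 79.8 CPM in the 5 RG2833 animals. The groups did not overlap, and the log2 fold change was -0.51 ± 0.10 (edgeR adjusted p = 0.0183). Uqcr10 had 104, 81.2, 88.8, 68.4 and 65.5 CPM in the 5 untreated animals and 64.4, 60.7, 59.5, 61.1 and 54.7 CPM in the 5 RG2833 animals. Its groups were also separate, narrowly so between untreated animal 5 and RG2833 animal 1, with a log2 fold change of -0.44 ± 0.11 (edgeR adjusted p = 0.0480). Uqcrb, another small subunit, also had every RG2833 value below every untreated value, at 159.6 ± 22.3 CPM without and 127 ± 6.62 CPM with RG2833, but was called by DESeq2 only (log2 fold change -0.33 ± 0.093, adjusted p = 0.0599 in edgeR and 0.0160 in DESeq2). Uqcr11 had 300.4 ± 43.3 CPM without and 239.9 ± 12.7 CPM with RG2833 (log2 fold change -0.32 ± 0.10, adjusted p = 0.0747 in edgeR and 0.0253 in DESeq2).

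The complex III genes for electron carriers and core proteins were not called by edgeR, and DESeq2's Wald test called 1 of them, Uqcrc2. Cyc1, the cytochrome c1 subunit, had 185 ± 17.9 CPM without and 175 ± 12.7 CPM with RG2833, and Uqcrfs1, the Rieske iron-sulfur protein, had 146 ± 17.1 CPM without and 139.9 ± 9.92 CPM with RG2833. Their log2 fold changes were -0.085 ± 0.082 and -0.066 ± 0.088, each with overlapping groups. The core proteins Uqcrc1 and Uqcrc2 had log2 fold changes of -0.17 ± 0.092 and -0.23 ± 0.07, the latter with an adjusted p of 0.0771 in edgeR and 0.0221 in DESeq2. Grouped after their values were seen, the 6 genes Sdha, Sdhb, Cyc1, Uqcrfs1, Uqcrc1 and Uqcrc2 had a median of -0.10, and the 5 small complex III subunits a median of -0.44. This contrast is a description, and the difference between these groups of genes was not tested.

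In complex IV, 5 of 12 tested genes were called lower, beside 2.67% of all tested genes, and the median log2 fold change was -0.34. The 5 were Cox5a, Cox7a2, Cox7b, Cox7c and Cox8a, nuclear-encoded subunits that surround the catalytic core made by mitochondrial DNA. Cox7b measured 181, 150.0, 163, 128 and 127 CPM in the 5 untreated animals and 98.5, 95.1, 88.2, 100.3 and 77.2 CPM in the 5 RG2833 animals. The groups did not overlap, and RG2833 animal 5 was the lowest of all. Its fitted level fell by 38.5%, a log2 fold change of -0.70 ± 0.11 (edgeR adjusted p = 0.00785). Cox7a2, the widely expressed form of subunit 7a, measured 191, 190.1, 201, 150.1 and 137 CPM in the 5 untreated animals and 114, 114, 107, 121 and 101 CPM in the 5 RG2833 animals. Untreated animals 4 and 5 again lay nearest the RG2833 values, and the log2 fold change was -0.64 ± 0.11 (edgeR adjusted p = 0.0114).

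Cox7c, a small membrane subunit, measured 228, 206, 206, 160.5 and 150.4 CPM in the 5 untreated animals and 127, 129, 115, 129 and 126 CPM in the 5 RG2833 animals, with no overlap and a log2 fold change of -0.60 ± 0.11 (edgeR adjusted p = 0.0157). Cox5a, which binds on the matrix side, had 215, 172, 200.0, 166 and 169.6 CPM in the 5 untreated animals and 150.1, 134, 126, 138 and 120.3 CPM in the 5 RG2833 animals. All RG2833 animals were lower than all untreated animals, with a log2 fold change of -0.46 ± 0.092 (edgeR adjusted p = 0.0206). Cox8a, the widely expressed form of subunit 8, measured 420.4, 366, 428, 334 and 296 CPM in the 5 untreated animals and 286, 288, 257, 291 and 264 CPM in the 5 RG2833 animals. The gap between untreated animal 5 and the highest RG2833 animal was small, and the log2 fold change was -0.41 ± 0.10 (edgeR adjusted p = 0.0400).

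The other complex IV genes were not called by edgeR, and DESeq2's Wald test called 2 of them, Cox6c and Cox4i1. Cox6c had 256 ± 40.4 CPM without and 198 ± 11.8 CPM with RG2833 with a log2 fold change of -0.37 ± 0.10 (adjusted p = 0.0579 in edgeR and 0.0132 in DESeq2). Cox4i1, the main form of the largest nuclear-encoded subunit, measured 707, 664, 673, 579.8 and 509 CPM in the 5 untreated animals and 529, 526, 497, 511 and 473 CPM in the 5 RG2833 animals. RG2833 animals 1, 2 and 4 were above untreated animal 5, and the log2 fold change was -0.31 ± 0.092 (adjusted p = 0.0708 in edgeR and 0.0175 in DESeq2). Cox5b had 268 ± 36.2 CPM without and 231 ± 16.8 CPM with RG2833 and Cox6a1 had 549 ± 94.4 CPM without and 470.4 ± 34.2 CPM with RG2833, with log2 fold changes of -0.21 and -0.22. Cox7a2l, which helps join complexes III and IV into supercomplexes, had 234 ± 28.9 CPM without and 225 ± 13.9 CPM with RG2833 and a log2 fold change of -0.06 ± 0.089, with a 95% interval of -0.25 to 0.13.

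Tissue isoforms of cytochrome c oxidase had few counts, with a median over animals of 25.5 for Cox4i2 and 24 for Cox6b2. Cox4i2, the form of subunit 4 linked to low oxygen, had 2.75 ± 1.10 CPM without and 2.50 ± 0.403 CPM with RG2833, and Cox6b2, a form known from testis, had 2.68 ± 0.353 CPM without and 2.40 ± 0.667 CPM with RG2833. Their log2 fold changes of -0.14 ± 0.28 and -0.16 ± 0.21 had SEs larger than the changes. At this depth 3 counts correspond to 0.268 to 0.343 CPM, a limit that covers counting error only. Cox8c had no count in any of the 10 animals, which allows up to those levels.

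**Figure D2:**
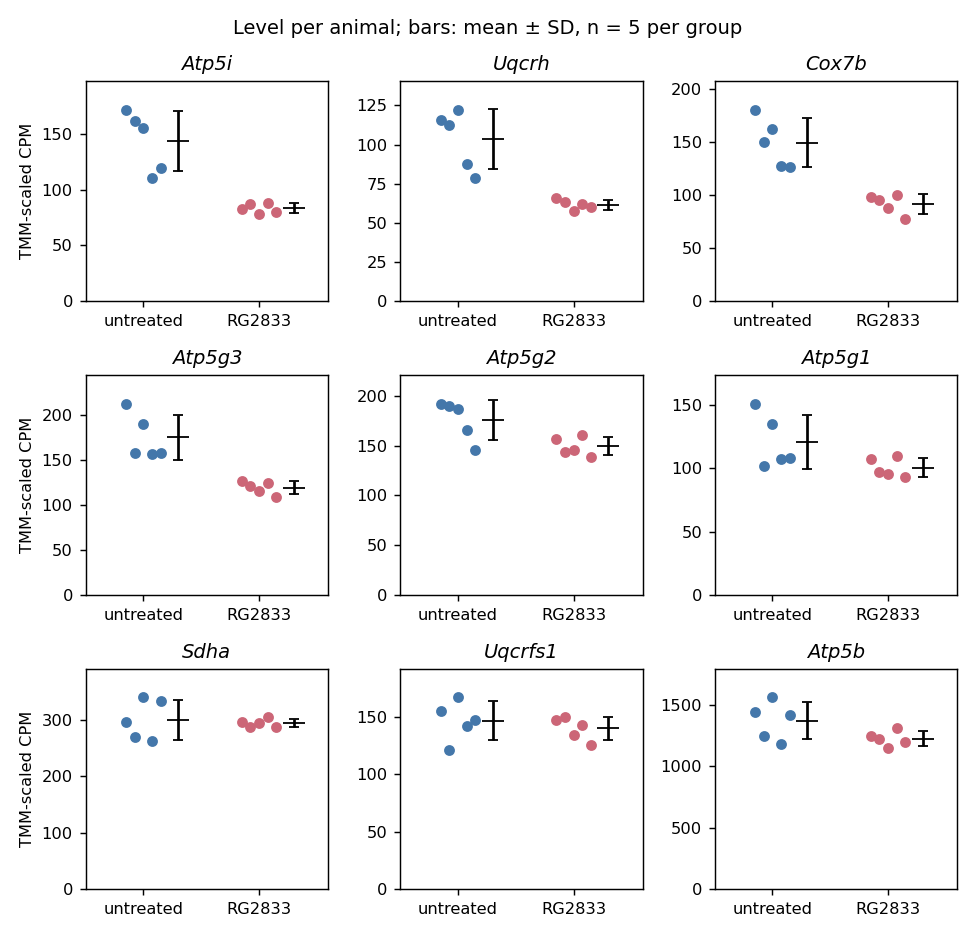
CPM in each of the 10 animals (points) with the mean and SD of each group of 5 for Atp5i, Uqcrh, Cox7b, the 3 c-subunit genes Atp5g3, Atp5g2 and Atp5g1, and Sdha, Uqcrfs1 and Atp5b. The RG2833 points lie wholly below the untreated points for Atp5i, Uqcrh, Cox7b and Atp5g3 and overlap them for the other 5 genes.

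Among ATP synthase genes, 7 of 15 tested members were called lower, beside 2.67% of all tested genes, and the median log2 fold change was -0.27. The c ring and membrane part supplied 4 calls among 6 genes (median -0.51), and the F1 head and stalks supplied 3 among 9 (median -0.24). The difference between these parts was not tested. Atp5i, the membrane subunit e at which ATP synthase dimers are held together, had the lowest p-value of all members. It measured 171, 161, 155, 111 and 119.5 CPM in the 5 untreated animals and 82.7, 87.3, 78.6, 88.2 and 80.1 CPM in the 5 RG2833 animals. Every RG2833 value lay below every untreated value, and the RG2833 animals spread less. The fitted level fell by 41.9%, a log2 fold change of -0.78 ± 0.11 (edgeR adjusted p = 0.00724).

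Atp5l, subunit g of the membrane part, measured 226, 192, 211, 184 and 155 CPM in the 5 untreated animals and 143, 144, 136, 147 and 126 CPM in the 5 RG2833 animals, with separate groups and a log2 fold change of -0.48 ± 0.10 (edgeR adjusted p = 0.0225). Atp5j2, subunit f, measured 235, 213, 237, 160.1 and 151 CPM in the 5 untreated animals and 142, 137, 121, 148 and 125 CPM in the 5 RG2833 animals. Its groups were separate, and untreated animals 4 and 5 were the nearest to RG2833 (log2 fold change -0.56 ± 0.13, edgeR adjusted p = 0.0338).

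The membrane ring is built from subunit c, for which Atp5g1, Atp5g2 and Atp5g3 encode the same mature protein with different import sequences. Atp5g3 measured 213, 158, 190.0, 157 and 158 CPM in the 5 untreated animals and 127, 121, 115, 124 and 109 CPM in the 5 RG2833 animals, with no overlap and a log2 fold change of -0.55 ± 0.095 (edgeR adjusted p = 0.0119). Atp5g2 measured 192, 189.6, 187, 166 and 145.5 CPM in the 5 untreated animals and 156, 144, 145.7, 161 and 139 CPM in the 5 RG2833 animals, with RG2833 animals 1, 3 and 4 above untreated animal 5. Atp5g1 measured 151, 102, 135, 107 and 108 CPM in the 5 untreated animals and 107, 96.7, 95.3, 109 and 92.8 CPM in the 5 RG2833 animals. Its groups overlapped too, and neither of the 2 genes was called, with log2 fold changes of -0.24 ± 0.086 and -0.26 ± 0.11 (edgeR adjusted p = 0.112 and 0.162). The change of Atp5g3 was not tested against that of its paralogs.

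In the stalks and head, Atp5j, coupling factor 6 of the peripheral stalk, measured 139, 116, 127, 98.4 and 87.5 CPM in the 5 untreated animals and 77.2, 69.8, 69.6, 74.0 and 62.8 CPM in the 5 RG2833 animals. The groups were separate, with a log2 fold change of -0.68 ± 0.12 (edgeR adjusted p = 0.0119). Atp5o, which ties the stalk to the head, measured 229, 213, 231, 166 and 175 CPM in the 5 untreated animals and 156, 157, 137, 156 and 129 CPM in the 5 RG2833 animals. It too had separate groups, with a log2 fold change of -0.46 ± 0.11 (edgeR adjusted p = 0.0334). Atp5e, the epsilon subunit of the central stalk, measured 165, 166, 163, 127 and 102.6 CPM in the 5 untreated animals and 103.1, 97.3, 93.3, 105 and 91.9 CPM in the 5 RG2833 animals. It was the only one of the 15 called genes with overlapping groups, because untreated animal 5 was below RG2833 animals 1 and 4 (log2 fold change -0.56 ± 0.12, edgeR adjusted p = 0.0285).

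The genes of the catalytic head and of the rest of the stalks were not called by edgeR, and DESeq2's Wald test called 1 of them, Atp5c1. Atp5b, the catalytic beta subunit, measured 1440.0, 1252, 1563, 1185 and 1416 CPM in the 5 untreated animals and 1248, 1226, 1148, 1312 and 1201 CPM in the 5 RG2833 animals. The values overlapped, with a log2 fold change of -0.16 ± 0.086 (edgeR adjusted p = 0.271). Atp5a1, the alpha subunit, had 745 ± 85.9 CPM without and 699 ± 35.8 CPM with RG2833 (log2 fold change -0.092 ± 0.087), and Atp5c1, the gamma subunit of the central stalk, had 231 ± 21.6 CPM without and 191 ± 16.6 CPM with RG2833 (log2 fold change -0.27 ± 0.085, adjusted p = 0.0809 in edgeR and 0.0376 in DESeq2). The delta subunit Atp5d and the peripheral stalk subunits Atp5h and Atp5f1 had log2 fold changes of -0.23, -0.24 and -0.086.

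The matched symbols Atp5s and Atp5sl name proteins related to coupling factor B that are no structural subunits. Neither was called by edgeR or DESeq2, at -0.21 ± 0.091 and -0.17 ± 0.12 on the log2 scale. Conversely, Usmg5 encodes a small membrane protein of ATP synthase that the symbol rule did not match. It measured 84.3, 71.6, 81.4, 51.7 and 54.9 CPM in the 5 untreated animals and 40.8, 33.2, 29.9, 38.4 and 32.9 CPM in the 5 RG2833 animals. The groups did not overlap, and its log2 fold change of -0.97 ± 0.14 (edgeR adjusted p = 0.00724) went past that of each of the 42 tested members. Usmg5 was called whichever single animal was omitted (10 of 10 fits), but not with the covariates given below (edgeR adjusted p = 1.00 for ribosomal RNA and 0.106 for excitatory neurons) or without untreated animals 2 and 3 (0.0604).

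Genes of proteins that build or serve these complexes were also tested. Of 25 tested assembly factors, edgeR called 2 lower (8%, beside 2.67% of all tested genes) and none higher, and DESeq2 called 3 lower. The median log2 fold change was -0.15. The edgeR calls were Uqcc2, a factor for making cytochrome b, and the complex IV factor Coa5. Uqcc2 had 57.6 ± 9.62 CPM without and 40.0 ± 2.82 CPM with RG2833 (log2 fold change -0.52 ± 0.11, edgeR adjusted p = 0.0241). Coa5 had 233 ± 3.77 CPM without and 197 ± 11.2 CPM with RG2833 (log2 fold change -0.25 ± 0.061, edgeR adjusted p = 0.0409). Tmem70, which helps assemble the c ring, had a log2 fold change of -0.24 ± 0.065 (edgeR adjusted p = 0.0527). In the list of cytochrome c, carriers, pore proteins and the ATP synthase inhibitor, edgeR called 1 of 9 tested genes, Usmg5, DESeq2 called 4 lower, and the median was -0.25. The pore protein Vdac2 and the adenine nucleotide carrier Slc25a5 had log2 fold changes of -0.28 ± 0.082 and -0.27 ± 0.089, neither called by edgeR.

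No gene of the tricarboxylic acid cycle was called among 13 tested by edgeR, and DESeq2 called none. At an unadjusted p under 0.05, 3 were lower and 1 was higher, beside 12.7% and 11.8% of all tested genes. The median was -0.10, and the 3 genes with the lowest p-values were Dld (log2 fold change -0.19 ± 0.077), Suclg2 (log2 fold change -0.35 ± 0.14) and Ogdh (log2 fold change 0.23 ± 0.10). Of 13 tested transcriptional regulators of respiratory genes, 4 were higher and none lower at an unadjusted p under 0.05. The shares of all tested genes were 11.8% and 12.7%. Among the 13, edgeR called 1 higher and none lower, beside 2.41% and 2.67% of all tested genes. The called gene was Yy1, a zinc finger factor. It measured 29.6, 30.9, 29.0, 33.4 and 34.8 CPM in the 5 untreated animals and 39.9, 36.9, 40.4, 36.3 and 39.7 CPM in the 5 RG2833 animals. Every RG2833 value was above every untreated value, an order found in 3.8% of all tested genes. The log2 fold change was 0.29 ± 0.075 (edgeR adjusted p = 0.0458). The coactivator Pprc1 (log2 fold change 0.30 ± 0.10) and the nuclear respiratory factor Nrf1 (log2 fold change 0.37 ± 0.13) were not called by edgeR. Of the 10 fits that left out 1 animal, 4 kept the call of Uqcc2 and 2 each kept those of Coa5, Yy1 and Aif1. None of these 4 genes was called with either covariate described below or without untreated animals 2 and 3.

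Calls in the same direction were found in other mitochondrial and ribosomal gene families. Among 36 tested complex I subunit genes, 15 (41.7%) were called lower, with a median log2 fold change of -0.32. The share was 8.7% of 69 mitochondrial ribosomal protein genes (6 called, median -0.20) and 57.5% of 80 cytosolic ribosomal protein genes (46 called, median -0.48). For the members here it was 35.7%. Differences between these lists were not tested.

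**Figure D3:**
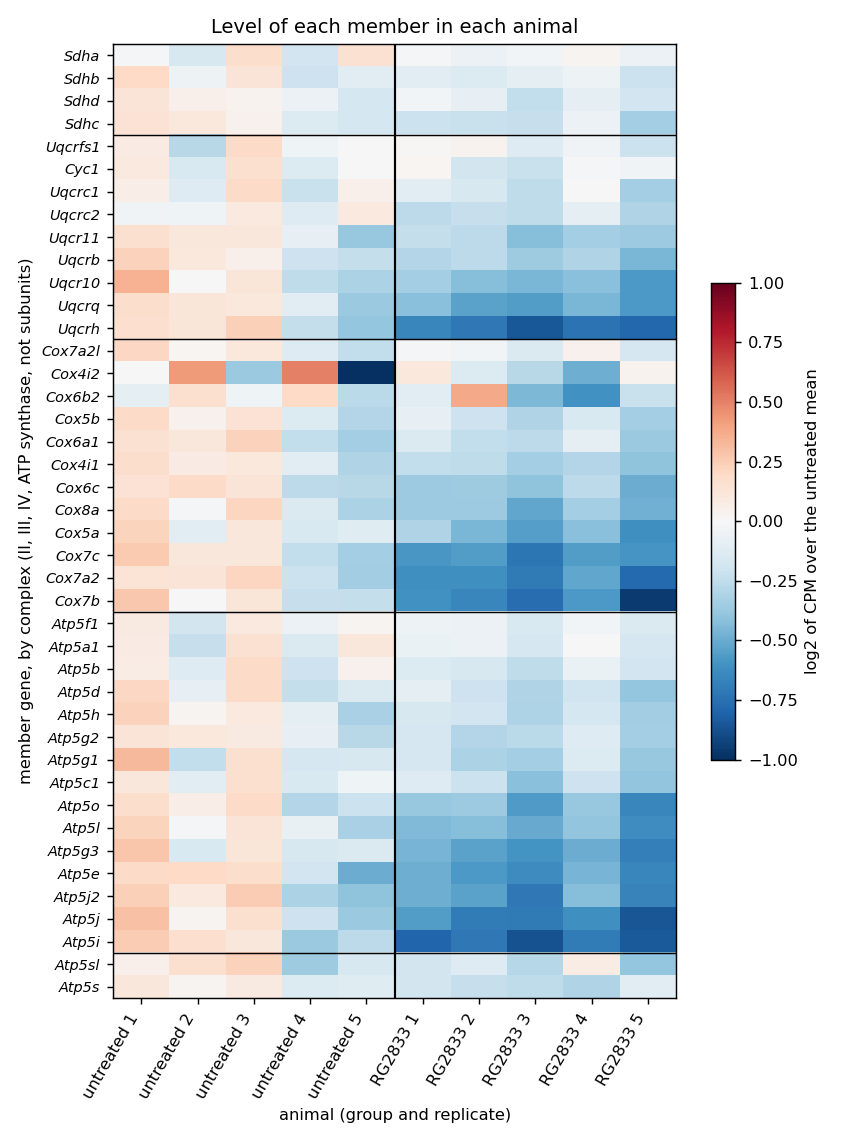
Heat map of the 42 tested members (rows, by complex) in the 10 animals (columns); colour is the log2 of CPM over the untreated mean, from -1 (blue) to 1 (red), and values beyond are shown at the end of the scale. RG2833 columns are bluest at the called genes, near white at Sdha, Uqcrfs1, Cyc1 and Atp5a1, and untreated animals 4 and 5 are bluer than untreated animals 1 and 3 for most genes.

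Levels of the members were also summarised per animal. The member score, the mean over the 42 tested genes of log2 CPM centred per gene, was 0.33, 0.19, 0.30, 0.02 and -0.047 in untreated animals 1 to 5. In RG2833 animals 1 to 5 it was -0.088, -0.12, -0.23, -0.10 and -0.25. Untreated animals ranged more widely (SD 0.17) than RG2833 animals (SD 0.075), and untreated animals 4 and 5 lay nearest to the treated animals. Over all tested genes, too, pairs of untreated libraries differed more than pairs of RG2833 libraries. The members together took 0.881 to 1.09% of counts in untreated and 0.763 to 0.854% in RG2833 animals. Scored by complex, untreated and RG2833 animals did not overlap in complex III (-0.0026 to 0.31 against -0.24 to -0.086) or ATP synthase (-0.0022 to 0.39 against -0.29 to -0.098). They overlapped in complex II (-0.083 to 0.18 against -0.14 to 0.023) and in complex IV (-0.15 to 0.35 against -0.26 to -0.085). The overlap in complex IV rested on the low-count gene Cox4i2 in untreated animal 5, since without Cox4i2 the scores were -0.081 to 0.37 against -0.29 to -0.11 and did not overlap.

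**Figure D4:**
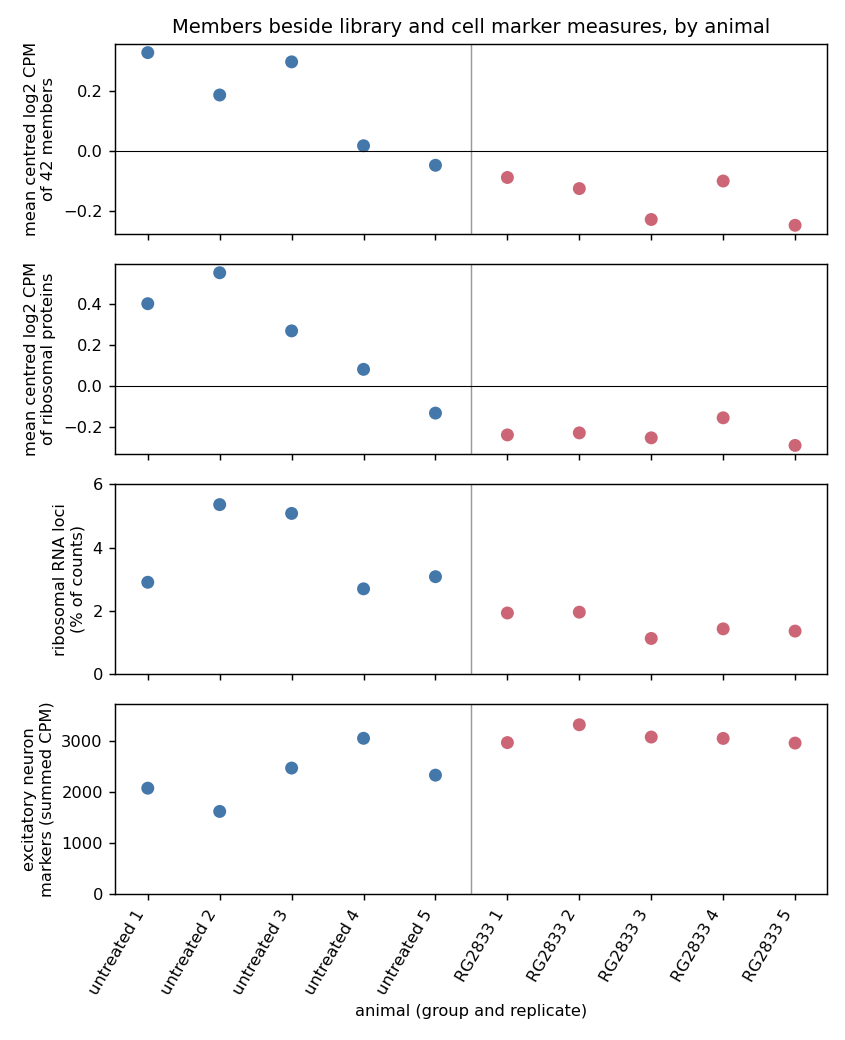
Measures of each of the 10 animals: respiratory subunit score, cytosolic ribosomal protein score (both mean centred log2 CPM), ribosomal RNA share (% of counts) and summed excitatory neuron markers (CPM). Untreated animals 4 and 5 have the lowest respiratory and ribosomal protein scores of their group, and the ribosomal RNA share separates the groups.

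The cytosolic ribosomal protein score, made the same way, was 0.40, 0.55, 0.27, 0.081 and -0.13 in untreated animals 1 to 5 and -0.24, -0.23, -0.25, -0.16 and -0.29 in RG2833 animals 1 to 5. Excitatory neuron markers summed to 2079.8, 1624, 2474, 3057 and 2335 CPM and to 2973, 3322, 3081, 3055 and 2963 CPM. For this sum, untreated animal 4 alone lay within the RG2833 range. Its Wfs1 level was 588 CPM, while untreated animals 1, 2, 3 and 5 held 64 to 88 CPM of that gene. Its Slc17a7 level of 1801 CPM was below the RG2833 minimum of 1906 CPM. Single markers gave other orders. Untreated animal 5, for example, was within the RG2833 range for Prox1 (42.7 CPM, RG2833 28.8 to 69.1 CPM).

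The calls did not hold when ribosomal RNA share or excitatory neuron markers were added to the model. In a fit with a term for ribosomal RNA share, no member was called lower or higher, 3 of 42 were lower at an unadjusted p under 0.05, and 34 of 42 log2 fold changes were below 0. Of all genes in that fit, 0.017% were called lower, 2.21% were lower at an unadjusted p under 0.05 and 52% had a log2 fold change below 0. Since the share separates the 2 groups, it and the treatment cannot be told apart in this design. With the excitatory neuron marker score no member was called, 14 of 42 were lower at an unadjusted p under 0.05 and 37 of 42 were below 0. The shares of all genes were 0.0594% called lower, 4.64% lower at an unadjusted p under 0.05 and 50.3% below 0. Atp5i had log2 fold changes of -0.48 and -0.53 in these fits (edgeR adjusted p = 1.00 and 0.169).

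Leaving out libraries changed the number of calls as well. Without untreated animals 2 and 3, the libraries with the highest ribosomal RNA share, no member was called, 22 were lower at an unadjusted p under 0.05 and all 42 log2 fold changes were below 0. This choice was made after the data were seen, and in that fit 0.109% of all genes were called lower, 7.78% were lower at an unadjusted p under 0.05 and 51.3% were below 0. Atp5i, Uqcrh and Cox7b then had log2 fold changes of -0.69, -0.61 and -0.66 (edgeR adjusted p = 0.0604, 0.0604 and 0.0710). Leaving out 1 animal at a time gave between 6 and 21 calls, and the number of calls over all genes moved as well. The fit without RG2833 animal 3 called 6 members and 73 genes in all lower, and the fits without untreated animals 4 and 5 called 20 and 21 members and 746 and 518 genes. The members called were 7 without untreated animal 3 (76 genes in all), and 9, 7 and 7 without RG2833 animals 1, 2 and 5 (86, 74 and 66 genes in all). Atp5g3, Atp5i, Atp5j, Cox7a2, Cox7b and Uqcrh were called in all 10 of these fits, and Cox7c in 9. Cox5a and Uqcrq were called in 6 and Atp5l in 5. Atp5e, Atp5j2, Atp5o, Cox8a and Uqcr10 were called in 2. A block for replicate number left 10 of the 15 calls, with 0.933% of all genes called lower.

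**Figure D5:**
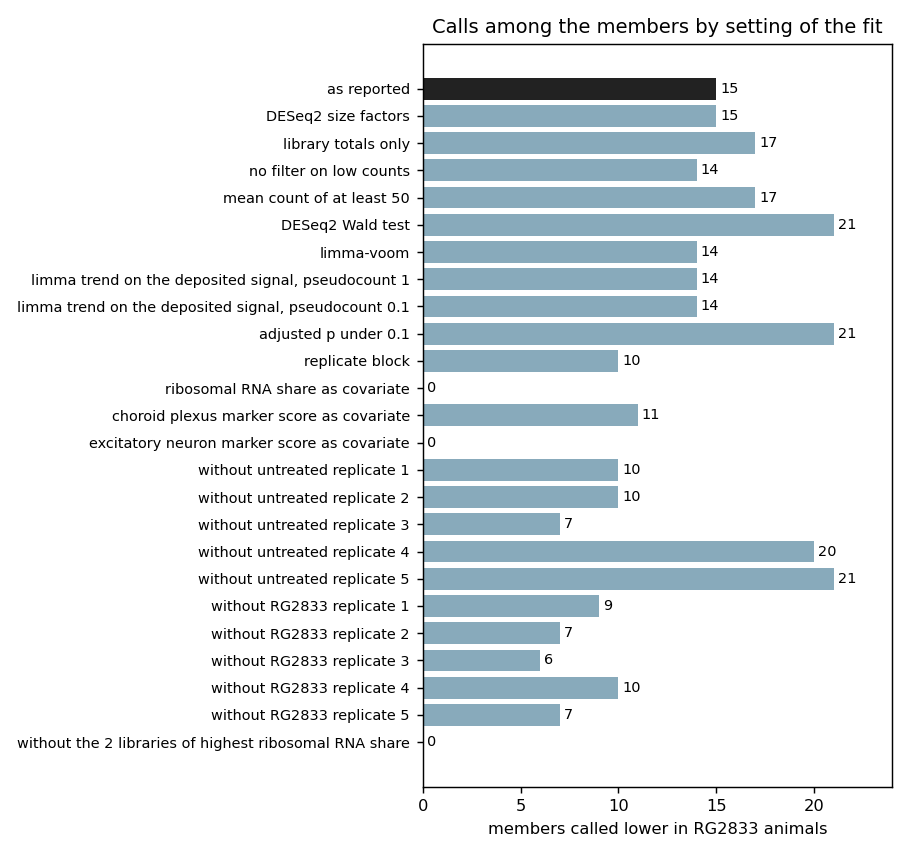
Number of the 42 tested members called lower in RG2833 animals (adjusted p under 0.05 unless named otherwise) in the reported fit, which gives 15, and under each alternative. The count is 0 with either covariate for ribosomal RNA or excitatory neurons and without the 2 libraries of highest ribosomal RNA share.

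Many of these genes have processed pseudogenes or near-identical paralogs, among them the Atp5g genes. How the counting divided reads between such copies was not examined, so single-gene levels are uncertain to that extent.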

How the data were processed

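The table of RSEM expected counts was deposited by the authors, without normalization, for 5 untreated and 5 RG2833 samples. A second deposited table holds a normalized signal that the authors made from these counts, with TMM scaling in CPM as the values show. Its whole multiples equalled the rounded counts at all but 8 to 23 genes per sample. The submitters' processing notes name bcl2fastq 2.17, Bowtie2 2.1.0, RSEM 1.2.15, edgeR and build rn6, without their order. Libraries were made with a stranded mRNA kit, per the labels' protocols, and whether the counting used strand is not given in the sources used here.

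Expected counts were rounded. Genes were kept by edgeR's filterByExpr by group, and all 10 samples entered a quasi-likelihood fit with TMM scaling and no covariate (R 4.3.3, edgeR 4.0.16). Benjamini-Hochberg adjustment ran over 11791 genes. The SE was taken from the fold change and the F statistic, as their ratio after a square root of F. Scores use log2 CPM with a prior count of 2. The procedure was run on simulated counts with changes larger than those of the members and equal spread in both groups. The simulation held no measure that separates the groups, as ribosomal RNA share does here, so it does not cover this case. Alternatives used DESeq2 1.42.0, limma 3.58.1 (voom, and trend on the deposited signal), other scalings, filters and covariates, a replicate block and each animal left out in turn. The members and all gene lists were chosen with earlier results of these data known. Named with values were every called member, in each complex the 3 genes with the lowest p-values and the 3 with the highest levels, all complex II genes, isoform pairs, the matched genes that are no subunits, and from other pathway lists the called genes or the 3 with the lowest p-values. Other members named, and the marker genes, are given for completeness. RefSeq promoters (GRCr8) were matched by symbol or synonym, and all 45 members were found in its gene table. The labels describe each sample as 1 left hippocampus of a transgenic rat, and each was taken as 1 animal. Within groups, the 20 pairs of libraries were compared by chi-square per degree of freedom (genes of at least 20 reads). It was 17.2 to 38.3 in untreated pairs and 4.75 to 10.6 in RG2833 pairs, without overlap. Each library therefore counted as 1 replicate.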

Additional observations from a re-analysis of the deposited data

Results flagged for a closer look

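Among 188 groups of 5 values examined, 8 had a library far from the rest, with a gap to the nearest other value above Dixon's 95% limit of 0.71 of the range of the group. Chance gives 9.4. Of the 8, 3 were members. Cox7c was at 115 CPM in RG2833 animal 3 and at 126 to 129 CPM in the other 4 (ratio 0.779). Without that animal the log2 fold change of Cox7c was -0.57 and it was no longer called (edgeR adjusted p = 0.0502), against -0.60 (edgeR adjusted p = 0.0157) with all animals. The others were members too low to test: Cox8b was at 1.26 CPM in untreated animal 1 and 0.529 to 0.649 CPM in the rest of its group (ratio 0.836), and Cox6a2 was at 0.724 CPM in RG2833 animal 4 and 0.0954 to 0.207 CPM in the rest (ratio 0.823).

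Untreated animal 1 stood apart in choroid plexus markers, with a summed level of 2835 CPM where its group otherwise spanned 59.8 to 103 CPM (ratio 0.984). The ratios were 0.995 for Ttr, 0.865 for Enpp2 and 0.806 for Clic6. Without that animal 10 members were called lower, and the part of these markers in the result was not tested beyond the fit with a choroid plexus covariate, which called 11. The inhibitory neuron gene Gad2 was at 74.5 CPM in untreated animal 5 and 24.6 to 37.6 CPM in the rest of the untreated group (ratio 0.739).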

How the results depend on the processing

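The 15 calls among 42 tested members, of 315 genes called lower in all, became 17 with library totals (367 genes in all) or a mean count of at least 50 (355, where 40 members are tested). They were 14 without a low-count filter (256) or with limma (255 to 295), 15 with DESeq2 size factors (328), 21 with DESeq2's Wald test (655) or a threshold of 0.1 (768), and 11 with a choroid plexus covariate (171). The count was 0 with a covariate for ribosomal RNA share (2 genes in all), 0 with the excitatory neuron marker score (7) and 0 without untreated animals 2 and 3 (13, chosen after seeing the data). The cause was not tested, and the last fit also has fewer samples. Leaving out 1 animal gave 6 to 21 calls lower (66 to 746 genes in all), 0 calls higher and medians of -0.30 to -0.22. The median of -0.25 became -0.085 with the ribosomal RNA covariate and kept its sign in every alternative run. No member was called higher in any of them.

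Of 757 values for 33 named genes under 23 alternatives, 625 kept direction and side of the threshold, 112 lost the call, 8 gained it and 12, all of uncalled genes, changed sign. With the ribosomal RNA covariate the changed signs were Sdhd 0.036, Sdha 0.015, Cox6a1 0.11, Cox4i2 0.0077, Cox6b2 0.25 and Atp5sl 0.25 (log2). With the excitatory score they were Sdhb 0.020, Sdha 0.034 and Atp5sl 0.020. With 1 animal left out, Sdha ranged from -0.072 to 0.014 and Cox4i2 from -0.32 to 0.027. Sdha was 0.014 without untreated replicate 3 and 0.012 without untreated replicate 5, and Cox4i2 was 0.027 without untreated replicate 4.

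Samples that share a number come from different animals. The correlations of their deviations from the group means were 0.029, 0.033, -0.32, -0.23 and 0.15, so the numbers do not pair them. A replicate block left 10 calls (110 genes in all), a fit with fewer residual degrees of freedom, and Atp5i then had a log2 fold change of -0.77 (edgeR adjusted p = 0.0296). Depth limits the isoforms under about 3 CPM, Cox4i2 and Cox6b2, and the untested genes.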

Other observations

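Among the members too low to test, Cox8b, the form of subunit 8 known from heart and skeletal muscle, had 11, 6, 7, 6 and 5 counts in the untreated animals and 2, 2, 4, 3 and 1 in the RG2833 animals. The groups did not overlap. In a fit without the filter on low counts the log2 fold change was -1.53 ± 0.45 (SE, edgeR adjusted p = 0.0765), so it was not called. Cox6a2, the muscle form of subunit 6a, had 3, 8, 6, 2 and 4 counts in untreated and 1, 2, 2, 7 and 1 in RG2833 animals. Its groups overlapped, and the same fit gave -0.81 ± 0.59 (SE, edgeR adjusted p = 0.456). Both genes were singled out after their values were seen, and a few reads decide each value.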
